A study of Mus musculus with 6 samples.

Results

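The genes described here are 8 classical targets of the aryl hydrocarbon receptor: Cyp1a1, Cyp1a2, Cyp1b1, Ahrr, Aldh3a1, Nqo1, Ugt1a6a and Scin. They were chosen by gene symbol as textbook targets of the hydrocarbons in smoke. All 8 were on the array, as 18 of its 32448 spots and 8 of its 11138 named genes. Each spot gave a log2 ratio of 2 RNA samples. Each gene had 2 spots except Cyp1a2, which had 4 under 2 probe accessions.

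RNA came from endothelial cells, the lining of vessels, of mice exposed to environmental tobacco smoke and of control mice. The 1-week labels call the cells sorted. The tissue, strain, sex and age of the mice, the smoke dose and the sorting markers are not given in the sources used here. The 1-week exposure had 3 arrays against control, of which replicate 1 was a dye reversal. The 6-week exposure had 2 arrays against 1-week control, with the dyes exchanged and averaged as 1 replicate, and 1 array against 6-week control. That leaves 3 replicates at 1 week and 2 at 6 weeks, and nothing says whether they came from separate animals, so p-values refer to the spread between arrays. Which RNA is on top of the ratio is not stated. Smoke was in channel 1 on all 6 arrays, so a positive log2 ratio is read as likely higher after smoke. Nor do the labels tell whether the submitters turned the dye-reversed ratios, so member values are given as deposited and with both dye-reversed arrays turned. As a description across the 11138 named genes (genes do not count as replicates), r between the 1-week dye reversal and each other 1-week array was 0.0719 and 0.1034. Over the 5625 genes whose spots lay within 1 log2 unit on every array these were 0.1847 and 0.2306, against 0.3872 between the unreversed 1-week arrays. Between the 6-week dye reversal and its partner r was -0.0302, or 0.0454 over those 5625 genes, and between it and the array against 6-week control 0.0892, or 0.1818. Over all named genes r between the unreversed 1-week arrays was 0.1479. Between the unreversed 6-week arrays, which differ in control, it was 0.0742, or 0.1395 over those 5625 genes. Signs as deposited gave a positive r in all of these comparisons but the 6-week pair over all named genes. The size of r was small, and r did not settle the signs. The 2 arrays of the 6-week pair, averaged as 1 replicate, thus hardly resembled each other. Ratios carry no level, so neither the endothelial identity of the cells nor how strongly they express any of the 8 genes could be checked.

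The aryl hydrocarbon receptor is a transcription factor that waits in the cytoplasm with heat shock protein 90 and helper proteins. Polycyclic hydrocarbons from burnt tobacco bind it, it enters the nucleus, pairs with ARNT and binds DNA at xenobiotic response elements, whose core letters are GCGTG. Its best known targets are the CYP1 oxidases, which attack the hydrocarbons, enzymes that reduce or conjugate the products, and the repressor AHRR, which closes the loop. In vessels CYP1A1 and CYP1B1 are the family members most often described.

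The promoters of 3 members are shown because their genes gave different values below: Cyp1b1 was positive on all 6 arrays, Cyp1a1 lay near 0 and Ahrr was near 0 on 4 arrays and apart on 2. Each runs 5′ to 3′ from 250 bases before to 50 bases after the gene's start, from RefSeq with build GRCm38.p6, and capitals mark GCGTG on either strand (CACGC where it lies on the other strand). Positions below count back from the gene's start, with -1 the base just before it.
Cyp1b1, chr17:79715012-79715311, minus strand: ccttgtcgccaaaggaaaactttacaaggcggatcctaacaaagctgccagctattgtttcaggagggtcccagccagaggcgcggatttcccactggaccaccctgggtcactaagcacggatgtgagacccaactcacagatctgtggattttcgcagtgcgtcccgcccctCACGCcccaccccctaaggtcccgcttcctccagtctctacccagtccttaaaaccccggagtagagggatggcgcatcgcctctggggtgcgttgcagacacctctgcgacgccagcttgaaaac
Cyp1a1, chr9:57697363-57697662, plus strand: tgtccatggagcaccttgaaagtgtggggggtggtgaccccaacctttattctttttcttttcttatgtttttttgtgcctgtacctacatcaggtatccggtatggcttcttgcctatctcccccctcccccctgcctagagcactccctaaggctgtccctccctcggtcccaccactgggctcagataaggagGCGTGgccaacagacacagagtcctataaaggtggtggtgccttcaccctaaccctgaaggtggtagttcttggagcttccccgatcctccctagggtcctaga
Ahrr, chr13:74292282-74292581, minus strand: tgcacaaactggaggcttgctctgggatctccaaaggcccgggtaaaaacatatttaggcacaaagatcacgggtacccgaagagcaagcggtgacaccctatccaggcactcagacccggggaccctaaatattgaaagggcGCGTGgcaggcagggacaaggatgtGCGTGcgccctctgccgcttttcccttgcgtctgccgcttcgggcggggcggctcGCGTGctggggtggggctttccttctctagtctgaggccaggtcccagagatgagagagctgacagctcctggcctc
The Cyp1b1 window held 1 core, on the opposite strand, with its first base in the printed direction at position -76. The Cyp1a1 window held 1 at -54, and the Ahrr window held 3, at -107, -82 and -27. Of the 7 members with a promoter in the RefSeq table, 4 held the core, the fourth being Scin with 1 at -35, while Cyp1a2, Nqo1 and Ugt1a6a held none. The core occurs in 32.39% of all 32851 promoter windows of this length, and 3 or more cores in 3.91%. The longer form TNGCGTG, which contains the core, was found only at the Ahrr match at -27 among the members and in 5.07% of all windows. A match is a run of letters and no measured binding, and elements farther from the start were not searched. Aldh3a1 has no entry in the table.

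No member passed limma's test at either exposure time. The lowest Benjamini-Hochberg adjusted p over all 19242 tests was 0.747 at 1 week, for Cyp1b1, and 1 at 6 weeks. The share of all features that passed was 0% in both comparisons, 0% for the difference between times and 0% for the mean of both, so the members' count of 0 equals the background. At an unadjusted p under 0.05 the members again numbered 0 at each time, against 7.49% of named genes at 1 week and 4.03% at 6 weeks. At 1 week 3 members had positive and 5 negative means, with a median log2 ratio of -0.03, against -0.01 over all named genes. At 6 weeks 5 were positive and 3 negative, with a median of 0.07, against -0.01. These counts move with the sign of near-zero values.

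**Figure D1:**
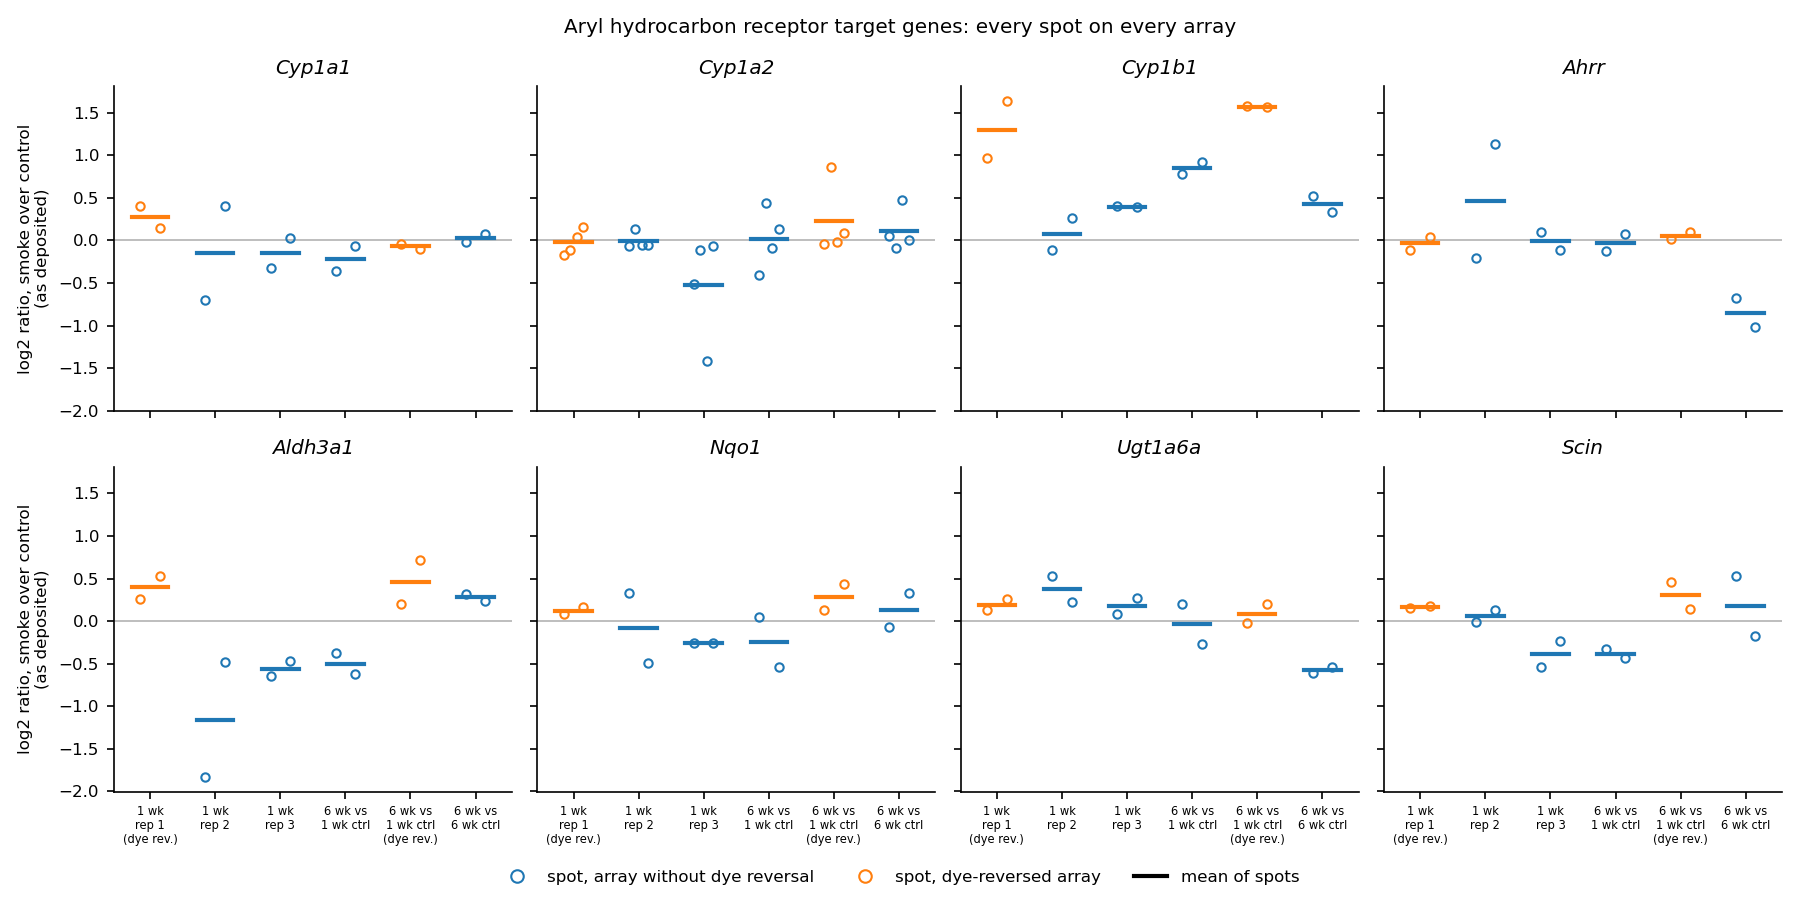
Log2 ratio of smoke over control, as deposited, for every spot of the 8 genes (open circles) and their mean (bars) on each of the 6 arrays, with dye-reversed arrays in orange. Cyp1b1 had a positive mean on all 6 arrays, and the other 7 genes lay on both sides of 0.

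Cyp1b1, the CYP1 oxidase that activates hydrocarbons in tissues outside the liver, stood apart from the other members. At 6 weeks its log2 ratio, the mean of its spots, was 0.85 against 1-week control, 1.57 on the dye-reversed partner of that array and 0.43 against 6-week control. At 1 week it was 1.30 on the dye-reversed array and 0.08 and 0.40 on the other 2 arrays. The highest values were those of the 2 dye-reversed arrays. All 6 values were positive, and 11 of the 12 spot values were, the exception being a spot at -0.11 on 1-week replicate 2. Among named genes, 3.24% were positive on all 6 arrays, and 4.2% of those with agreeing spots, defined as spots of a gene within 1 log2 unit on every array. Of the 8 members, 1 was positive on all 6 and 0 were negative on all 6.

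The Cyp1b1 means were 0.82 ± 0.37 at 6 weeks and 0.59 ± 0.30 at 1 week (SE of limma, n = 2 and n = 3). Their 95% confidence intervals ran from -0.10 to 1.74 at 6 weeks and from -0.16 to 1.34 at 1 week. Over both times the mean was 0.71 ± 0.24, with a limma p of 0.0277 before adjustment and 0.721 after it. In that contrast 7.44% of named genes had an unadjusted p under 0.05. The difference between 6 weeks and 1 week was 0.23 ± 0.47 with an adjusted p of 0.968, so the 2 times were not distinguished. The spread among the 6 arrays, an SD of 0.578, exceeded the median SD of 0.385 over named genes.

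The spots of Cyp1b1 lay closer together than the median gap of named genes on 4 of the 6 arrays. They differed by 0.011 log2 units on 1-week replicate 3, by 0.0145 on the 6-week dye reversal and by 0.136 on its partner, and at most by 0.678, on the 1-week dye reversal. In a separate limma fit of the 5625 named genes with agreeing spots the gene had an adjusted p of 0.546 at 6 weeks, 0.331 at 1 week and 0.128 over both times. In that fit 0.213% of the genes passed at 6 weeks, 1.81% at 1 week and 1.83% over both times.

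The size of the Cyp1b1 ratio went with the dye orientation. Its values of 1.57 and 1.30 on the dye-reversed arrays were above the other 4, which ran from 0.08 to 0.85. With both dye-reversed arrays turned, the mean was 0.03 ± 0.46 at 6 weeks and -0.28 ± 0.38 at 1 week. A fit added after seeing the data, which took all 6 arrays as replicates with a term for dye orientation, gave 1.12 ± 0.18 at 6 weeks and 0.76 ± 0.18 at 1 week. In it the adjusted p was 0.581 at 6 weeks and 0.579 at 1 week, and the orientation term itself was -0.50 ± 0.13, with an adjusted p of 0.783. That fit counts both arrays of the dye swap, so its SE is too small if they repeat the same RNA. Without the 1-week dye reversal the 1-week mean was 0.24. The 6-week pair with exchanged dyes, in which a dye effect cancels if both ratios run smoke over control, had a mean of 1.21. The pair counts as 1 replicate, so this value carries no spread among 6-week replicates. Across named genes r between the 2 arrays of the pair was -0.0302.

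**Figure D2:**
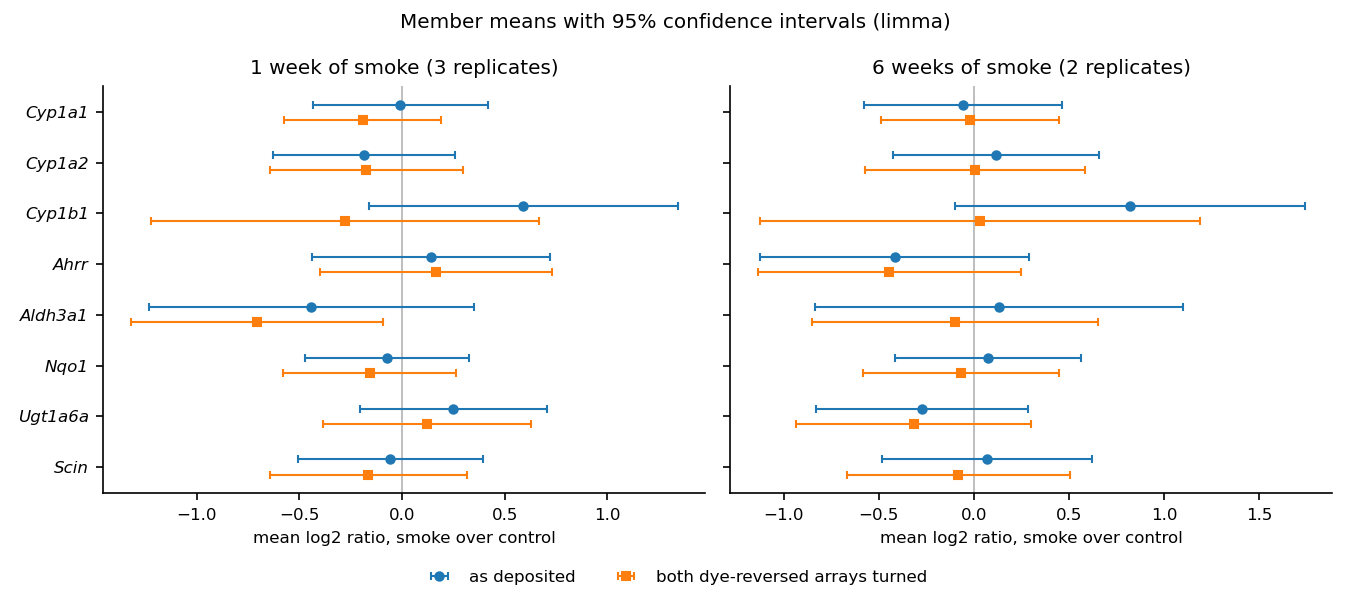
Mean log2 ratio of smoke over control with 95% confidence intervals from limma for each gene at 1 week (3 replicates) and 6 weeks (2 replicates), with signs as deposited (circles) and both dye-reversed arrays turned (squares). As deposited, every interval contains 0, and with the arrays turned every interval but that of Aldh3a1 at 1 week does.

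Cyp1a1, the oxidase whose induction is the usual sign of receptor activation, lay near 0. Its values were 0.28, -0.15 and -0.15 on 1-week replicates 1 to 3. At 6 weeks they were -0.21 and -0.07 on the arrays against 1-week control, the second being the dye reversal, and 0.03 against 6-week control. Positive and negative arrays occurred at both times. The means were -0.01 ± 0.17 at 1 week and -0.06 ± 0.21 at 6 weeks, both with an adjusted limma p of 1. The 1-week interval, from -0.43 to 0.42, bounds a rise at 1.33-fold and a fall at 1.35-fold. The 6-week interval, from -0.58 to 0.46, bounds them at 1.38-fold and 1.49-fold. With both dye-reversed arrays turned the means were -0.19 ± 0.15 at 1 week and -0.02 ± 0.19 at 6 weeks, and the 1-week bounds were 1.14-fold for a rise and 1.49-fold for a fall. A ratio near 0 cannot be told apart from a spot near background here, since no intensities were used. On 1-week replicate 2 the 2 spots read -0.70 and 0.40, a gap of 1.11 that the mean of -0.15 hides. The SD over the 6 arrays, 0.178, was smaller than that of all but 6.46% of named genes.

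Cyp1a2, the CYP1 oxidase known mainly from liver, gave no shared shift either. At 6 weeks its means over 4 spots were 0.02 and 0.22 against 1-week control, the second on the dye reversal, and 0.11 against 6-week control. At 1 week they were -0.02, -0.01 and -0.53. The 1-week value of -0.53 on replicate 3 came with spots of the second probe accession at -1.41 and -0.07. The means were 0.12 ± 0.22 at 6 weeks and -0.19 ± 0.18 at 1 week. Without 1-week replicate 3 the 1-week mean was -0.016, and with both dye-reversed arrays turned the means were 0.0056 at 6 weeks and -0.17 at 1 week. With signs as deposited and the dye swap averaged, Cyp1a2 was the 1 member of 8 whose replicates all had one sign at 6 weeks and the other at 1 week. In either direction 5.59% of named genes had this pattern. On none of the arrays did the mean exceed the gap between the highest and lowest spot. Cyp1a1 and Cyp1a2 are closely related in sequence, and whether the spots distinguish them was not tested.

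Ahrr, the repressor that competes with the receptor for ARNT, was close to 0 on 4 arrays and far from it on 2. At 1 week its values were -0.03, 0.46 and -0.01. At 6 weeks they were -0.03 and 0.06 against 1-week control and -0.85 against 6-week control. The value of 0.46 averaged spots at -0.20 and 1.13, whereas the spots behind -0.85 were -0.68 and -1.02. The means were 0.14 ± 0.23 at 1 week and -0.42 ± 0.28 at 6 weeks. The 6-week mean rested on a single array and was 0.01 without the array against 6-week control. The 6-week replicates differ in their labelled control and in the array, which cannot be told apart. The means were 0.16 at 1 week and -0.45 at 6 weeks with both dye-reversed arrays turned.

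Aldh3a1, which oxidises aldehydes from smoke and lipid peroxidation, had the widest spread of the 8, with an SD of 0.657 over the 6 arrays. Its values at 1 week were 0.39, -1.16 and -0.56. At 6 weeks they were -0.50 and 0.46 against 1-week control and 0.28 against 6-week control. Both dye-reversed arrays were positive and 3 of the other 4 negative. The 1-week mean was -0.44 ± 0.31 as deposited and -0.71 ± 0.24 with both dye-reversed arrays turned, where its unadjusted p was 0.0314 and its adjusted limma p 0.857. Without 1-week replicate 2, whose spots read -1.83 and -0.49, the 1-week mean was -0.08, and without the dye-reversed replicate 1 it was -0.86, with an unadjusted p of 0.0222 in limma. The 6-week mean was 0.13 ± 0.39 as deposited and -0.10 ± 0.30 turned.

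Nqo1, a quinone reductase that also responds to the NRF2 stress pathway, had a spot mean within 0.28 of 0 on every array. At 1 week it read 0.12, -0.08 and -0.26. At 6 weeks it read -0.25 and 0.28 against 1-week control, so the arrays with exchanged dyes had opposite signs, and 0.13 against 6-week control. Its 2 spots had opposite signs on 1-week replicate 2 (0.33 and -0.50) and on both unreversed 6-week arrays. These read 0.04 and -0.55 against 1-week control, and -0.07 and 0.33 against 6-week control. The mean exceeded the gap between spots on 2 of the 6 arrays. The means were -0.07 ± 0.16 at 1 week and 0.07 ± 0.19 at 6 weeks, and -0.16 and -0.07 with both dye-reversed arrays turned. As deposited, the 1-week interval, from -0.47 to 0.33, bounds a rise at 1.25-fold, and the 6-week interval bounds it at 1.48-fold; turned, these bounds were 1.20-fold and 1.37-fold.

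Ugt1a6a, which conjugates phenols with glucuronic acid, had spots never more than 0.477 apart. It was the only member of the 8 within 0.5 log2 units on all arrays. At 6 weeks it read -0.04 and 0.09 against 1-week control and -0.57 against 6-week control, where both spots were negative at -0.61 and -0.54. All 3 of its 1-week values were positive, at 0.19, 0.38 and 0.18. The mean was -0.27 ± 0.22 at 6 weeks and 0.25 ± 0.18 at 1 week, with an adjusted limma p of 1 at 6 weeks and 0.752 at 1 week. Without the array against 6-week control the 6-week mean was 0.025. The difference of 6 weeks minus 1 week was -0.52 ± 0.29, with an adjusted p of 0.951. With both dye-reversed arrays turned the mean was -0.32 at 6 weeks and 0.12 at 1 week. Genes of the mouse Ugt1a cluster share their downstream exons, so the signal of a spot from that stretch would not belong to Ugt1a6a alone.

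Scin, which encodes the actin-severing protein adseverin, read 0.16, 0.05 and -0.39 at 1 week. At 6 weeks it read -0.38 and 0.30 against 1-week control and 0.17 against 6-week control. The means were -0.06 ± 0.18 at 1 week and 0.07 ± 0.22 at 6 weeks, and -0.17 and -0.08 with both dye-reversed arrays turned. As with Nqo1, the arrays with exchanged dyes had opposite signs. The spots were at most 0.702 apart.

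Read array by array, the 8 genes were positive most often on the 6-week dye reversal. The number of positive members was 6 on the 1-week dye reversal and 7 on the 6-week dye reversal. It was 4, 2, 2 and 6 on the other arrays in the order of 1-week replicates 2 and 3, 6-week against 1-week control and 6-week against 6-week control. Of all named genes between 47.0% and 50.6% were positive on each array. The member medians were 0.18 and 0.25 on the dye-reversed arrays and 0.02, -0.20, -0.12 and 0.12 on the others. In the fit with an orientation term that term was negative for all 8 members, from -0.50 for Cyp1b1 to -0.06 for Ahrr, and none passed. It was negative for 49.0% of named genes. Over all 19242 features 0 passed for orientation, with 1130 at an unadjusted p under 0.05. The 8 genes share the same 6 arrays, so they do not count as separate observations. Lists described below also had many positive genes on the 1-week and 6-week dye reversals. These were 7 and 9 of 9 machinery genes, 8 and 6 of 9 epithelial markers and 5 and 4 of 5 smooth muscle markers. NRF2 targets had 6 and 3 of 21, and endothelial markers 7 and 2 of 14.

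**Figure D3:**
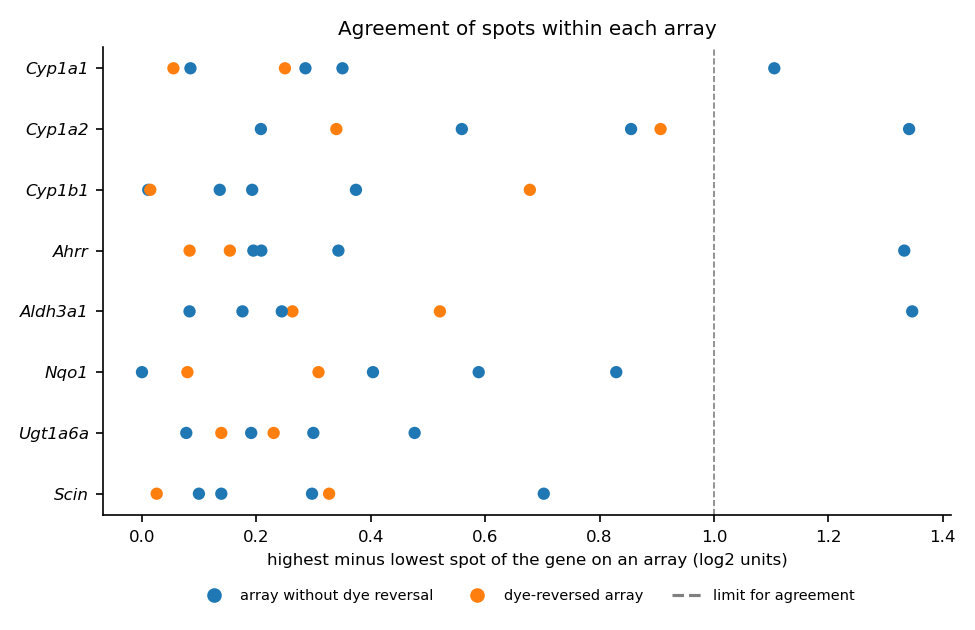
Gap between the highest and lowest spot of each gene on each array in log2 units, with dye-reversed arrays in orange and the limit for agreement of 1 as a dashed line. Cyp1b1, Nqo1, Ugt1a6a and Scin stayed below the limit on all 6 arrays, and the other 4 genes each passed it on 1.

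Spots of 4 members agreed within 1 log2 unit on all 6 arrays, and of 1 member within 0.5. Among named genes 50.5% and 18.16% did. The 4 that did not agree each failed on a single array. Cyp1a1, Ahrr and Aldh3a1 failed on 1-week replicate 2, with gaps of 1.11, 1.33 and 1.35, and Cyp1a2 on 1-week replicate 3, with a gap of 1.34. The median gap of the 8 members was 0.602 on 1-week replicate 2, against 0.322 over named genes, and between 0.2 and 0.269 on the other arrays. Leaving out that array moved the 1-week mean of Ahrr to -0.02, of Cyp1a1 to 0.06 and of Cyp1b1 to 0.85. Only 1 of the 108 spot values of the members, a Cyp1a2 spot, lay at a fold of exactly 1.00. That value held between 2.2% and 5.11% of the spots of named genes per array. Over all features it was more common on every array than the next hundredth on either side, and whether filtered spots were set to it is not given in the sources used here.

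Of the receptor's own machinery, 9 of 14 listed genes were measured, and the receptor gene Ahr was not among them. At 1 week 5 were positive and 4 negative, with a median of 0.01, and at 6 weeks 6 and 3, with a median of 0.12. None passed at either time, and 2 had an unadjusted p under 0.05 at 1 week and 1 at 6 weeks. Among named genes 7.49% and 4.03% did. Arnt, the DNA-binding partner of the receptor, was at 0.24 ± 0.15 at 1 week and 0.04 ± 0.18 at 6 weeks. With both dye-reversed arrays turned it was at 0.07 and -0.11.

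Of the 9 machinery genes 2, Ptges3 and Ncoa2, were positive on all 6 arrays and 0 were negative on all 6. Among named genes these shares were 3.24% and 3.62%. Ptges3 is the p23 cochaperone that holds the receptor with heat shock protein 90. It read 0.93, 0.51 and 0.84 at 1 week, 1.38 and 0.76 at 6 weeks against 1-week control and 0.62 against 6-week control. Its spots were at most 0.347 apart. The means were 0.76 ± 0.18 and 0.84 ± 0.22, with adjusted limma p of 0.583 and 1, and 0.14 and 0.46 with both dye-reversed arrays turned. Unlike Cyp1b1, its highest value was not on a dye-reversed array. Ncoa2, a coactivator that receptor complexes recruit, was at 1.01 ± 0.30 at 1 week and 0.12 ± 0.36 at 6 weeks. Its spots differed by up to 3.06 log2 units, and turned it was at -0.08 and 0.04. Cul4b, a ubiquitin ligase scaffold that the receptor can use, was at -0.19 ± 0.26 and 0.52 ± 0.32, with spots up to 2.15 apart, and at -0.24 and 0.01 turned.

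Other genes described as inducible through the receptor showed no common direction. Of 17 listed, 12 were measured, with 6 positive and 6 negative at 1 week and a median of -0.01, and 7 and 5 at 6 weeks with a median of 0.03. None had an unadjusted p under 0.05 at either time, against 7.49% of named genes at 1 week and 4.03% at 6 weeks. Xdh, the xanthine oxidase gene, was at -0.72 ± 0.35 at 1 week and -0.52 ± 0.44 at 6 weeks. Its values of -1.54 and -1.52 on the dye-reversed arrays were well below the other 4, which ran from -0.66 to 0.03, and with both dye-reversed arrays turned its means were 0.30 and 0.25. Ccng2, a cyclin linked to growth arrest, was at 0.64 ± 0.27 and 0.33 ± 0.34, and at 0.00 and 0.29 turned. Nfe2l2, which encodes NRF2, was at 0.27 ± 0.19 and 0.06 ± 0.23, and at -0.12 and 0.11 turned. Cyp2s1 was at -0.27 ± 0.24 and 0.53 ± 0.30, with spots up to 4.31 apart, and at 0.15 and 0.60 turned.

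Relatives of the members by family had 7 negative and 2 positive means at 1 week, of 9 measured, with a median of -0.05. Of the 11138 named genes 5689 were negative at that time. At 6 weeks 6 relatives were negative and 3 positive, with a median of -0.13. An unadjusted p under 0.05 was seen for 1 relative at 1 week, Gsn, and 0 at 6 weeks. Among named genes 7.49% and 4.03% had such a p. None passed. Gsn, the actin-severing protein gelsolin and a relative of Scin, read -1.41, -0.40 and -1.31 at 1 week and -0.21, -0.33 and -0.49 at 6 weeks. All 6 values were negative, with means of -1.04 ± 0.24 and -0.38 ± 0.30 and adjusted limma p of 0.574 and 1. With both dye-reversed arrays turned these means were -0.10 and -0.22. Its relative Scin was at -0.06 at 1 week, and the difference between the 2 genes was not tested. Nqo2 was at -0.26 ± 0.24 and 0.14 ± 0.30, with spots up to 1.44 apart, and at 0.01 and -0.03 turned. Aldh3a2 was at -0.20 ± 0.19 and -0.33 ± 0.23, and at -0.10 and -0.12 turned.

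NRF2 targets, the stress genes whose regulation Nqo1 shares, had a median of -0.02 at 1 week and -0.09 at 6 weeks over 21 measured genes. Of these 6 were negative on all 6 arrays, against 3.62% of named genes, and none was positive on all 6. None passed. An unadjusted p under 0.05 was seen for 4 at 1 week and 3 at 6 weeks, all negative. Among named genes 7.49% and 4.03% had such a p, in either direction. Tkt, a pentose phosphate enzyme, was at -0.76 ± 0.21 at 1 week and -0.83 ± 0.26 at 6 weeks, and Gstm1, a glutathione transferase, at -0.70 ± 0.17 and -0.56 ± 0.20. With both dye-reversed arrays turned, Tkt was at -0.07 and -0.21 and Gstm1 at -0.06 and -0.35. Nqo1 was at -0.07 and 0.07 as deposited and at -0.16 and -0.07 turned. As deposited, 9 of the 21 genes had positive and 12 negative means at each time. Tkt and Gstm1 were named for their small p and do not stand for the list.

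**Figure D4:**
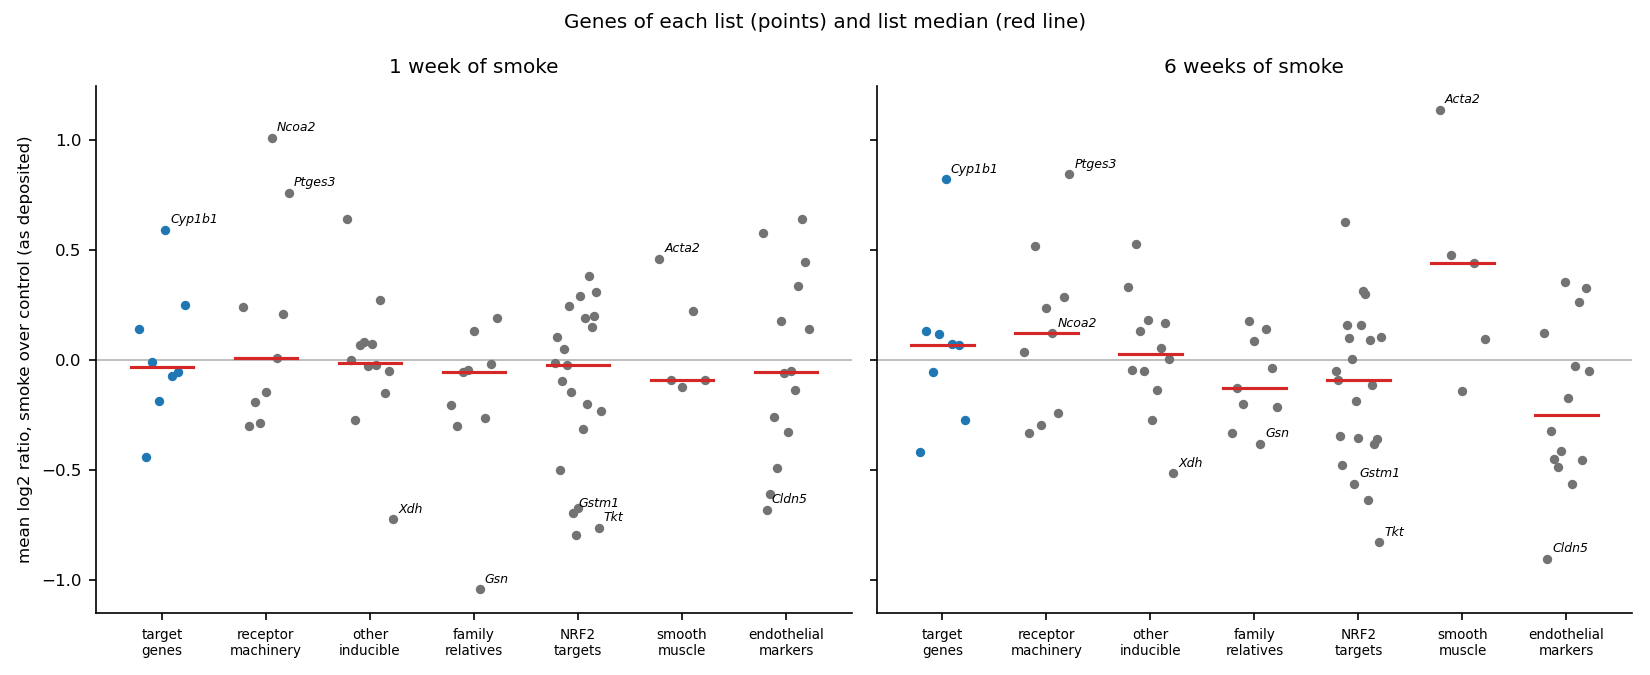
Mean log2 ratio of smoke over control, as deposited, for each measured gene (points) of 7 lists at 1 week and 6 weeks, with the list median as a red line. The 8 target genes are in blue, and their medians of -0.03 and 0.07 lie close to 0.

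Markers of other cell types were set beside these values. Smooth muscle and pericyte markers, of which 5 of 6 were measured, had medians of -0.09 at 1 week and 0.44 at 6 weeks, with 2 and 4 positive. By array the 6-week medians were 0.13 and 0.52 against 1-week control and 0.44 against 6-week control. Acta2, smooth muscle actin, was the highest of the 5 at both times. It was at 0.46 ± 0.21 and 1.14 ± 0.26, and at 0.04 and 0.44 with both dye-reversed arrays turned. Rgs5 was at 0.22 ± 0.16 and 0.44 ± 0.20, and at 0.19 and 0.48 turned. Pdgfrb went the other way, at -0.12 ± 0.23 and -0.14 ± 0.28, and at -0.38 and -0.40 turned. Cyp1b1 is also active in vascular smooth muscle, and the part of these cells in its ratio was not tested. Fewer cells of a type and less RNA per cell cannot be told apart in such bulk samples. Endothelial markers had medians of -0.06 and -0.25 over 14 genes, of which 6 were positive at 1 week and 4 at 6 weeks. As deposited, 1 of them was positive on all 6 arrays and 4 were negative on all 6. Among named genes these shares were 3.24% and 3.62%. The positive one was Tek, an angiopoietin receptor, at 0.44 ± 0.15 and 0.33 ± 0.18, and at 0.16 and 0.29 turned. Cldn5, a junction protein among the 4 negative ones, was at -0.68 ± 0.17 and -0.90 ± 0.21, and at -0.26 and -0.07 turned. Epithelial markers had medians of -0.15 and 0.03 over 9 genes and hepatocyte markers 0.01 and -0.06 over 4. Leukocyte markers had medians of 0.00 and 0.03 over 7 genes, fibroblast markers -0.49 and -0.12 over 5, and adipocyte markers 0.06 and 0.07 over 3. None of the markers passed at either time.

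The genes most like a member over the 6 arrays were sought among those with agreeing spots. Tbc1d9b, Cdca4 and Dapk1 followed Cyp1b1 most closely, at r = 0.988, 0.979 and 0.975 across the 6 arrays. For Cyp1a1 these were Hoxa4, Scn11a and Fxr1, at r = 0.988, 0.988 and 0.976, and for Nqo1 they were Nid1, Eno2 and Lifr, at r = 0.991, 0.990 and 0.984. With 6 arrays such values are common in a search this wide: 73 genes exceeded 0.9 for Cyp1b1, 35 for Cyp1a1 and 108 for Nqo1. Of the 6 arrays 4 share a dye orientation, and arrays may share control RNA. Likeness in pattern did not mean likeness in sign. Tbc1d9b and Cdca4 were negative on every unreversed array, where Cyp1b1 was positive. Dapk1 read -0.57 and -0.55 on 1-week replicates 2 and 3 and -0.60 against 6-week control. Scn11a and Fxr1 were positive on every array, whereas Cyp1a1 was negative on 4. Nid1 and Eno2 were negative on every array but the 6-week dye reversal, whereas Nqo1 was positive on 3. Lifr had the sign of Nqo1 on every array. With the dye-reversed arrays turned, r with Cyp1b1 became -0.55 for Tbc1d9b, 0.28 for Cdca4 and 0.83 for Dapk1. With Cyp1a1 it became 0.78 for Hoxa4, 0.21 for Scn11a and 0.34 for Fxr1. With Nqo1 it became 0.38 for Nid1, 0.61 for Eno2 and 0.79 for Lifr. These values describe likeness of pattern only.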

How the data were processed

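The deposited table gives log2 ratios for 32448 features on 6 arrays. The scanner, background correction, normalization and dyes are not given in the sources used here. From the values, the deposited log2 ratios come from folds in whole hundredths (within 0.02 of a hundredth for 99.9877% or more of each array's values). Each array has a median of 3e-07. No intensities were used, so signal over background was not assessed. Precision is limited by the small number of arrays.

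A probe table gave 24344 features 1 symbol, 98 several and 8006 none. All 8 members matched the RefSeq gene table by Entrez identifier. Spots of a gene were averaged on each array after median centring. Features without 1 symbol were tested singly. With signs as deposited and the 6-week dye swap averaged, the limma package (version 3.58.1, R 4.3.3; lmFit, eBayes) fitted 1 coefficient per exposure time over 19242 tests. There were 3 residual and 2.39 prior degrees of freedom. Tests were two-sided with Benjamini-Hochberg adjustment at 0.05. Code was tested on simulated data.

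The members and lists were chosen with earlier results of these data known, and so was the choice of signs as deposited. Genes named from each list were at most 3 with the smallest p at 1 week and 2 at 6 weeks, plus Ahr, Arnt and Tiparp where measured; the text gives part of them. No protein sequences were used here.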

Additional observations from a re-analysis of the deposited data

Results flagged for a closer look

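Cyp1a2 was positive on both replicates at 6 weeks (0.12 and 0.11) and negative on all 3 at 1 week (-0.02, -0.01 and -0.53), a difference of 0.30 ± 0.28 for 6 weeks minus 1 week, with an adjusted limma p of 0.951. Vil1, an actin-bundling relative of Scin, was negative on both at 6 weeks (-0.16 and -0.27) and positive on all 3 at 1 week (0.08, 0.19 and 0.30), a difference of -0.40. Pdgfra, a fibroblast marker, read 0.02 and 0.67 at 6 weeks and -0.72, -0.39 and -0.37 at 1 week, a difference of 0.84. These 3 genes are listed because, with signs as deposited, their replicates at the 2 times had opposite signs, as 5.59% of named genes did. The first 6-week replicate of each is the mean of the dye swap, whose arrays had opposite signs for Vil1 (-0.39, and 0.07 on the dye reversal) and Pdgfra (0.32, and -0.28 on the dye reversal). At 1 week, replicate 1 is a dye reversal, and turning it sets its sign against replicates 2 and 3 in all 3 genes. With both dye-reversed arrays turned, none of the 3 thus keeps the pattern. The turned means at 6 weeks and 1 week were 0.0056 and -0.17 for Cyp1a2, -0.25 and 0.13 for Vil1, and 0.48 and -0.01 for Pdgfra. The test of the difference between times passed for 0 of 19242 features, with 684 at an unadjusted p under 0.05 in limma, and 0 with robust limma.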

How the results depend on the processing

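No member passed in any alternative that tested it, 21 for the 4 members with agreeing spots and 19 for the others. The 6-week arrays against 1-week control alone and the fit without the array against 6-week control are the same fit under 2 names. Among genes with agreeing spots 102 features passed at 1 week, 12 at 6 weeks and 103 over both times, with fewer genes tested. Without moderation 5 passed at 6 weeks, 5 for the difference and 3 over both times, and with the dye swap arrays as separate replicates 6 passed over both times. All other counts were 0, those with each array left out included.

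With both dye-reversed arrays turned, Cyp1b1 became -0.28 at 1 week and -0.12 over both times, also among genes with agreeing spots, and at 6 weeks Aldh3a1 became -0.10, Nqo1 -0.067 and Scin -0.084. Turning only the 6-week one gave the same 6-week values and a Cyp1b1 difference between times of -0.56, against -0.16 with the 6-week control alone. At 1 week Cyp1a1 was 0.017 with scaled arrays, 0.022 with quantile normalization, 0.030 with the orientation term and 0.19 on the second spot, and Scin was 0.0049 with the orientation term and 0.021 on the second spot. On the first spot Ahrr was -0.072, Nqo1 0.051 and, at 6 weeks, Cyp1a2 -0.085, and Scin was -0.16 on the second spot at 6 weeks. At 6 weeks, with 1-week control alone, Ahrr was 0.015, Aldh3a1 -0.019, Ugt1a6a 0.025 and Scin -0.041, and with 6-week control alone Cyp1a1 was 0.028. The cause was not tested.

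Leaving out each array in turn gave these ranges at 1 week: Aldh3a1 -0.86 to -0.084, Cyp1a2 -0.27 to -0.016, Cyp1b1 0.24 to 0.85, Ahrr -0.020 to 0.23, Cyp1a1 -0.15 to 0.064, Nqo1 -0.17 to 0.021 and Scin -0.17 to 0.11. At 6 weeks they were Ahrr -0.44 to 0.015, Aldh3a1 -0.11 to 0.37, Nqo1 -0.060 to 0.21, Scin -0.10 to 0.24 and Ugt1a6a -0.31 to 0.025. The Cyp1b1 difference between times ranged from -0.028 to 0.62. Members with agreeing spots numbered 1 in place of 4 at a limit of 0.5 log2 units. No paired analysis was possible because replicate numbers were given in accession order and pair no samples. Signal over background, which limits what a ratio near 0 can show, was not used here.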
